A study of Mus musculus with 4 samples.

Results

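Ligands of the activin and TGF-β families and their secreted antagonists were examined in RNA-Seq libraries of lung tumor-infiltrating CD4+ T cells. The set was named gene by gene and holds *Inhba*, *Inhbb*, *Inha*, *Tgfb1*, *Tgfb2*, *Tgfb3*, *Gdf11*, *Fst*, *Fstl1* and *Fstl3*, which are 10 of the 25239 gene symbols counted. There were 4 libraries on the C57BL/6 background, 2 with the label WT and 2 with the label CD4/ALK4-KO, here called WT-labelled and KO-labelled. CD4/ALK4-KO mice carried CD4CreERT2+/- and Acvr1b fl/fl, so that tamoxifen, given at 75 mg/kg on 5 days, induces Cre recombinase from the mouse *Cd4* promoter and deletes *Acvr1b*, the gene of the activin receptor ALK4. The methods do not state for each library whether the WT mice also received tamoxifen. Mice of both groups, aged 8 to 10 weeks, received by the intravenous route 500000 cells of LLC-OVA, a Lewis lung carcinoma line made to carry ovalbumin. Tumors were taken at 18 to 22 days by the labels and at 16 to 20 days by the methods. CD4+ T cells were isolated from a Percoll fraction of tumor leukocytes, and the libraries are described as biological replicates, 2 for each genotype. How many mice went into each library is not given in the sources used here, so the p-values measure the spread between these libraries.

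Activins are disulfide-linked dimers of inhibin β subunits that bind a type II receptor, ACVR2A or ACVR2B, which then recruits the type I receptor ALK4 and leads to phosphorylation of SMAD2 and SMAD3. TGF-β isoforms use TGFBR2 and ALK5 to reach the same SMAD proteins, and are secreted in a latent form that is stored on matrix proteins and must be activated. Follistatin and the follistatin-like protein encoded by *Fstl3* bind activins and keep them from their receptors. In CD4+ T cells TGF-β is known for its part in regulatory T cell formation, and activin A is made by macrophages, stromal cells and activated T cells among others.

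The libraries did not hold T cell RNA alone, and the targeted gene did not separate them. *Acvr1b* had 426 and 342 counts in the WT-labelled libraries and 322 and 445 in the KO-labelled ones, so the groups overlapped (adjusted p = 0.66, edgeR quasi-likelihood test with Benjamini-Hochberg adjustment). The counts cover the whole gene, in all cells of the library, and directions are therefore given between libraries as labelled. Total counts per library were 11823908 to 13943237, and 13919 genes passed the expression filter. Levels are in CPM, the usual read count scaled to library size, with library sizes adjusted by TMM, a method that assumes most genes do not change. All 10 T cell markers were detected and higher in the KO-labelled libraries, with a sum of 2269 to 2402 CPM against 405 to 437 CPM. All 7 fibroblast markers were also detected, none was at 0, and their sum was 6787 to 7365 CPM in the WT-labelled libraries and 3997 to 4802 CPM in the KO-labelled ones. In such bulk libraries, fewer cells of a type and less RNA per cell cannot be told apart.

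**Figure D1:**
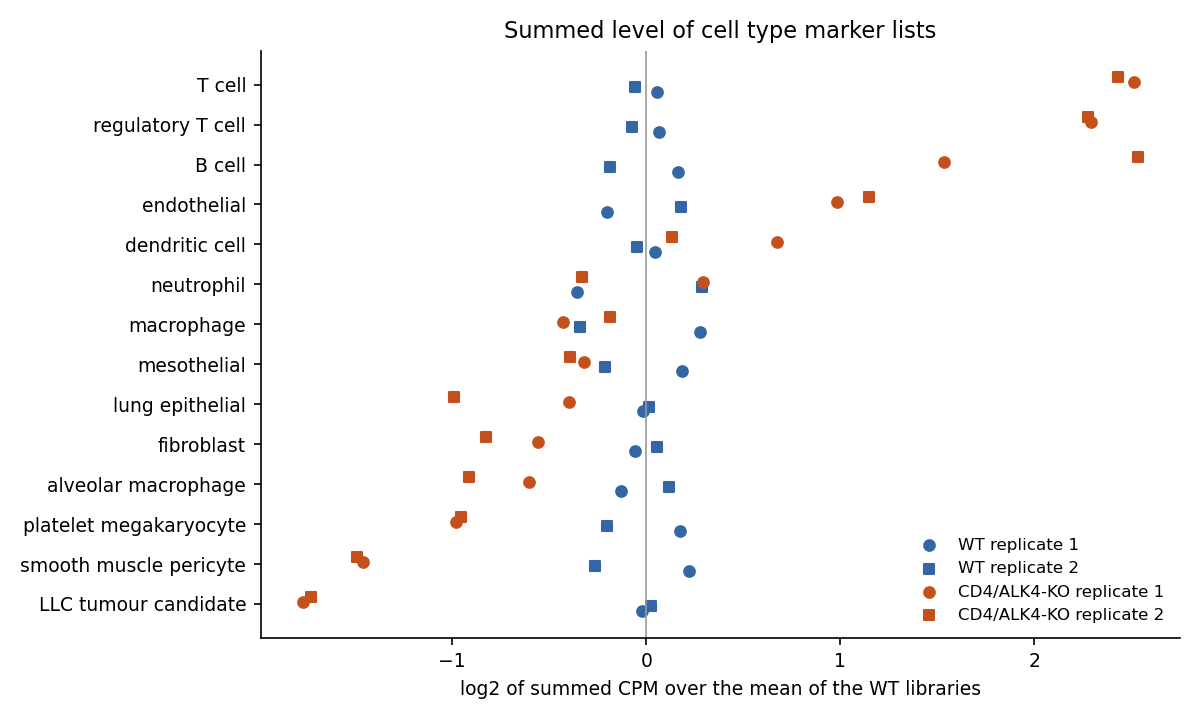
Summed CPM of each marker list in each library, as log2 of the ratio to the mean of the 2 WT-labelled libraries, for 14 lists; each point is 1 library. T cell and regulatory T cell sums stood apart upward in both KO-labelled libraries, and the sums of smooth muscle, fibroblast and candidate LLC tumour genes stood apart downward.

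Of the 10 genes, 1 rose and 2 fell. *Inhba*, which encodes the subunit of activin A, was 1.74-fold higher in the KO-labelled libraries, while *Fstl1* was 1.62-fold and *Fstl3* 2.79-fold lower. The other 7 genes did not pass the test. All 10 passed the filter on low counts. Among all genes tested, 32.8% were called in either direction, 17.4% higher and 15.4% lower, so a share of 3 in 10 was near the background. The median log2 fold change of the 10 genes was -0.47, against -0.0082 over all genes tested, and 7 of the 10 lay below 0. The groups did not overlap in CPM for 7 of the 10 genes, against 66.7% of all genes tested.

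**Figure D2:**
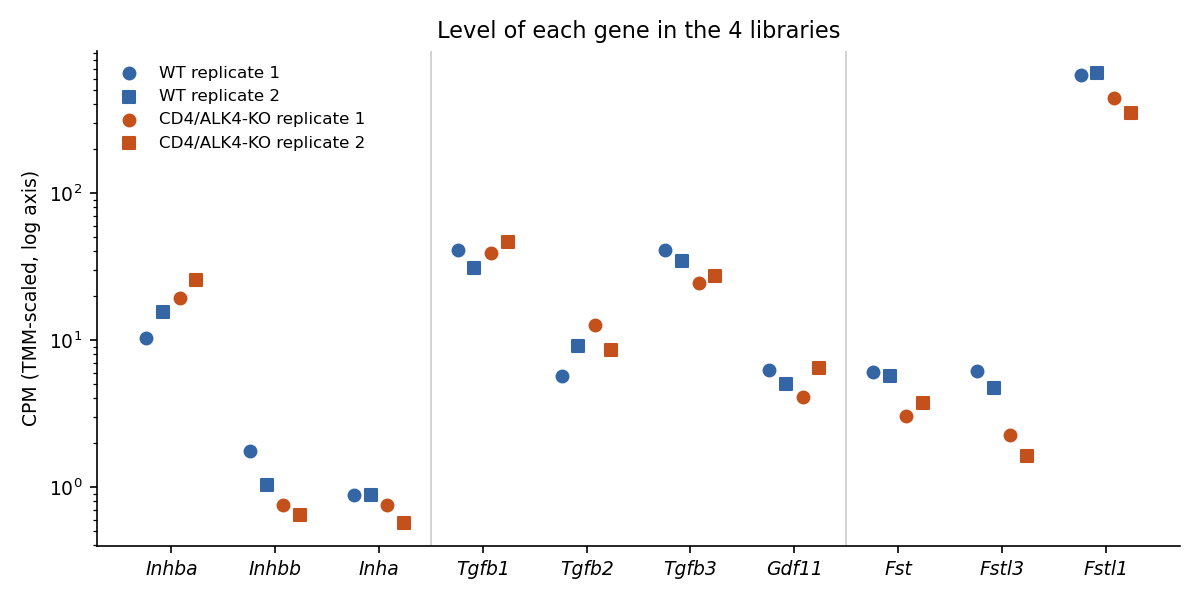
CPM (TMM-scaled, log axis) of each of the 10 genes in the 4 libraries, with 1 point for each library, grouped as inhibin and activin subunits, TGF-β isoforms with *Gdf11*, and antagonists. *Fstl1* lay between 352 and 652 CPM in every library, far above the next gene, while *Inha* stayed below 1 CPM in every library.

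Promoter sequence is shown for the 3 genes that passed the test, to give the letters before each start. The sequences are those of RefSeq on GRCm38.p6, read 5′ to 3′ along the gene and ended where the first annotated exon begins. Short motifs were searched on both strands, CAGAC, the SMAD half-site, and TGANTCA, the AP-1 site, and matches are in capitals. The *Inhba* window is chr13:16011601-16011850, the *Fstl1* window chr16:37776805-37776872 and the *Fstl3* window chr10:79777024-79777271, all on the plus strand.
Inhba: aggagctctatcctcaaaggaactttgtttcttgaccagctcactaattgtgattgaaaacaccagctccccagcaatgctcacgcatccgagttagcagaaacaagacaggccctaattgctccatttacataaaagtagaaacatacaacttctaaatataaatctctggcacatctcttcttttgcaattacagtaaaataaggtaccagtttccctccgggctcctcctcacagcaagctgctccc
Fstl1: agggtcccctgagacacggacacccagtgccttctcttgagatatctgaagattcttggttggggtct
Fstl3: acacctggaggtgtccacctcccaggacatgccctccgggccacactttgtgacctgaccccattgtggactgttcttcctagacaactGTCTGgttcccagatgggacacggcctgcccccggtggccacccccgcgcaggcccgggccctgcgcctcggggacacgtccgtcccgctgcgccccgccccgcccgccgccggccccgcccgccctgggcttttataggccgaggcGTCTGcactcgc
The *Fstl3* window held 2 matches to CAGAC, both on the other strand and so read as GTCTG, and none to TGANTCA. The *Inhba* and *Fstl1* windows held neither motif. In the full windows of 250 bases before the start, *Tgfb2* and *Fstl3* had 2 matches to CAGAC each and *Inha* had 1, whereas *Inhba*, *Inhbb*, *Tgfb1*, *Gdf11* and *Fstl1* had none. No TGANTCA was found in these 8 windows. Over 32851 such windows of all genes, 42.2% held CAGAC and 6.75% held TGANTCA. GC content of the bases shown was 43.2% for *Inhba* (250 bases), 52.9% for *Fstl1* (68 bases) and 71.4% for *Fstl3* (248 bases). The median over all full windows of 250 bases, not cut at an exon, was 52.4%. A match describes letters only and marks no binding.

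The activin and inhibin subunits were led by *Inhba*. *Inhba* (chromosome 13, 16011851 to 16031621, plus strand, GRCm38) had 141 and 210 counts in the WT-labelled libraries and 231 and 315 in the KO-labelled ones. In CPM these were 10.3 and 15.5 against 19.4 and 25.5. Both KO-labelled libraries lay above both WT-labelled ones, with a gap between the groups smaller than the gap within either of them. The log2 fold change was 0.80 with a standard error of 0.28 (adjusted p = 0.034, edgeR quasi-likelihood test). This call rested on the choice of libraries and of scaling: the fold change ran from 0.53 without WT replicate 1 (adjusted p = 0.46) to 1.12 without WT replicate 2 (adjusted p = 0.052), and it was also not called without CD4/ALK4-KO replicate 2 (0.58, adjusted p = 0.097) or with upper quartile scaling (0.74, adjusted p = 0.059).

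*Inhbb*, which encodes the subunit of activin B, was scarce. The gene (chromosome 1, 119415465 to 119422248, minus strand) had 24 and 14 counts in the WT-labelled libraries and 9 and 8 in the KO-labelled ones. The groups did not overlap, but the log2 fold change of -0.98 had a standard error of 0.67 (adjusted p = 0.28). *Inha* (chromosome 1, 75507077 to 75510366, plus strand) encodes the α subunit, which pairs with a β subunit to form inhibin, an antagonist of activin. It had 12 counts in each of the WT-labelled libraries and 9 and 7 in the KO-labelled ones, with a log2 fold change of -0.41 and a standard error of 0.72. At such counts a difference of this size was not detectable. The related subunit genes *Inhbc* and *Inhbe*, named after their values were seen, had 0 counts in every library.

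Among the TGF-β isoforms, *Tgfb1* and *Tgfb3* had similar counts in the WT-labelled libraries, and no isoform passed the test. *Tgfb1* (chromosome 7, 25687002 to 25705077, plus strand), the isoform most tied to immune cells, had 40.8 and 30.7 CPM in the WT-labelled libraries and 39.1 and 46.4 CPM in the KO-labelled ones. These values overlapped, and the log2 fold change was 0.26 with a standard error of 0.23 (adjusted p = 0.42). *Tgfb3* (chromosome 12, 86056745 to 86079041, minus strand), an isoform known from palate and lung development, had 40.8 and 34.2 CPM against 24.4 and 27.4 CPM. Both KO-labelled libraries lay below both WT-labelled ones, but the log2 fold change of -0.54, with a standard error of 0.23, did not pass (adjusted p = 0.083, edgeR quasi-likelihood test). It passed without CD4/ALK4-KO replicate 2 (-0.63, adjusted p = 0.045). *Tgfb2* (chromosome 1, 186622792 to 186705989, minus strand) was less abundant, with 5.69 and 9.09 CPM in the WT-labelled libraries and 12.6 and 8.50 CPM in the KO-labelled ones. Its groups overlapped, and the log2 fold change was 0.51 with a standard error of 0.33 (adjusted p = 0.25).

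*Gdf11* (chromosome 10, 128882295 to 128891718, minus strand), a ligand close to myostatin that can signal through ALK4 and ALK5, had 86 and 68 counts in the WT-labelled libraries and 49 and 79 in the KO-labelled ones. The groups overlapped, with a log2 fold change of -0.10 and a standard error of 0.38. Its sign depended on the libraries, since it was 0.059 without WT replicate 1 and 0.21 without CD4/ALK4-KO replicate 1.

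The 3 antagonist genes all had lower means in the KO-labelled libraries. In each the groups did not overlap, as was the case for 66.7% of all genes tested. *Fst* (chromosome 13, 114452290 to 114458951, minus strand) encodes follistatin, which surrounds the activin dimer and blocks its receptor contacts. It had 83 and 77 counts in the WT-labelled libraries and 36 and 46 in the KO-labelled ones, or 6.06 and 5.69 CPM against 3.02 and 3.73 CPM. The log2 fold change was -0.80 with a standard error of 0.39 and did not pass (adjusted p = 0.13, edgeR quasi-likelihood test).

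*Fstl3* (chromosome 10, 79777272 to 79782630, plus strand) encodes a second activin-binding protein of the follistatin family. It fell from 84 and 64 counts in the WT-labelled libraries to 27 and 20 in the KO-labelled ones, which is 6.13 and 4.73 CPM against 2.27 and 1.62 CPM. Even the lower WT-labelled library had more than the higher KO-labelled one. The log2 fold change was -1.48 with a standard error of 0.45 (adjusted p = 0.015, edgeR quasi-likelihood test), with a range of -1.71 to -1.26 over the leave-one-out fits. It was not called without WT replicate 1 (adjusted p = 0.24) or without WT replicate 2 (adjusted p = 0.060). Exons of *Fstl3* overlap those of *Prss57* on the opposite strand, which had 2, 5, 17 and 1 counts, and the library kit does not mark strand. Exons of *Tgfb2*, *Tgfb3* and *Fst* also overlap genes on the opposite strand, which are not among the gene symbols counted.

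*Fstl1* (chromosome 16, 37776873 to 37836514, plus strand) encodes a secreted glycoprotein with a follistatin domain, abundant in mesenchymal cells and known to bind BMP4. It had 8670 and 8815 counts in the WT-labelled libraries and 5280 and 4340 in the KO-labelled ones, which is 633 and 652 CPM against 444 and 352 CPM. The groups were well apart, and the WT-labelled libraries were close to each other. The log2 fold change was -0.69 with a standard error of 0.22 (adjusted p = 0.016, edgeR quasi-likelihood test). Without WT replicate 1 it was -0.72 (adjusted p = 0.17) and without WT replicate 2 it was -0.68 (adjusted p = 0.18), so the value held while the call did not. The 7 fibroblast markers had a median log2 fold change of -0.69. Of these 4 were called lower, among them *Dcn*, an extracellular matrix proteoglycan, and *Col3a1*, a fibrillar collagen. The other 3 were not called, with *Col1a1* at -0.21, *Col1a2* at -0.28 and *Pdgfra* at 0.22. The part of fibroblast RNA in the fall of *Fstl1* was not tested.

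**Figure D3:**
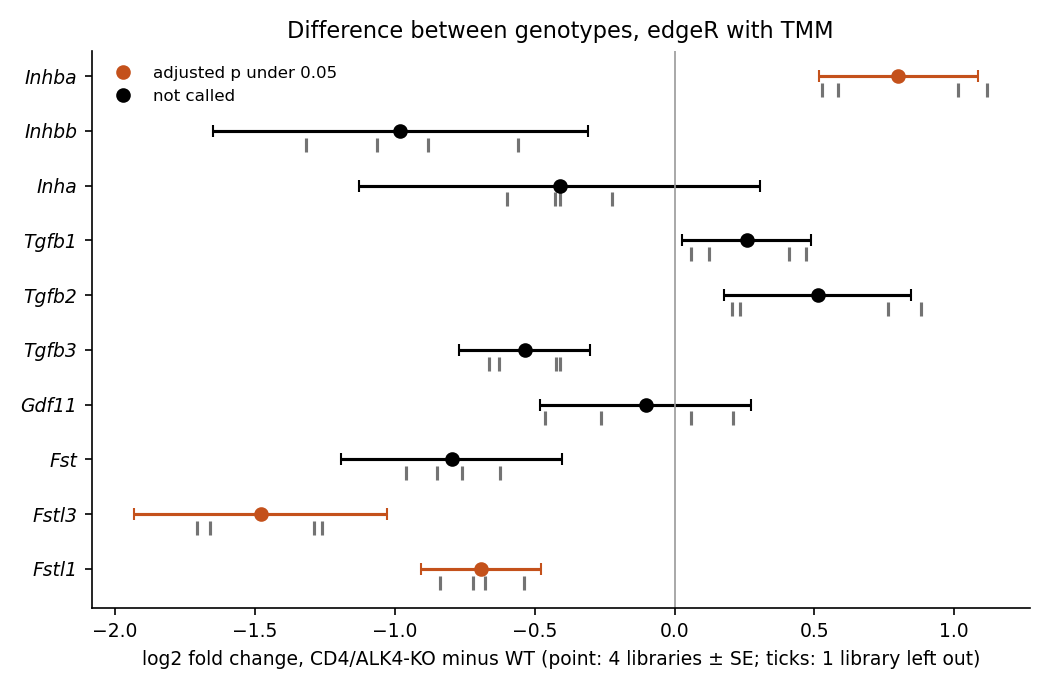
Log2 fold change of each gene between the KO-labelled and WT-labelled libraries, with the standard error as the bar, and with the values obtained as each of the 4 libraries was left out as ticks; orange marks an adjusted p under 0.05. *Fstl3* had the lowest value, -1.48, and *Inhba* the highest, 0.80, with ticks from 0.53 to 1.12, and the ticks of *Gdf11* lay on both sides of 0.

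*Fstl1* made up most of the reads of the set. The 10 genes together had 10296 and 10261 counts in the WT-labelled libraries and 6546 and 5831 in the KO-labelled ones, which was 0.0742% and 0.0736% of all counts against 0.0547% and 0.0493%. *Fstl1* gave 84.2% and 85.9% of these counts in the WT-labelled libraries and 80.7% and 74.4% in the KO-labelled ones. The fall of the sum was therefore mostly that of 1 gene.

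Levels of different genes were set side by side as CPM per kilobase of exon. In the WT-labelled libraries *Fstl1* was first with a mean level of 131, above 97.2% of the 13691 tested genes with a known length. *Tgfb3* followed at 11.1 and *Tgfb1* at 7.09 on the same scale, and these 2 did not overlap between libraries. Next came *Fstl3* at 2.22 and *Inhba* at 2.02, which overlapped, and then *Gdf11* at 1.39, *Fst* at 1.28 and *Tgfb2* at 1.28, each overlapping with its neighbour. *Inha* at 0.598 and *Inhbb* at 0.327 were last and did not overlap.

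In the KO-labelled libraries the order changed in the middle. *Fstl1* was still first at 80.9 CPM per kilobase, above 95.9% of the genes. *Tgfb1* at 8.48 and *Tgfb3* at 7.65 overlapped, with *Tgfb1* now the higher mean. *Inhba* came next at 3.51, apart from *Tgfb2* at 1.82, which overlapped with *Gdf11* at 1.29. *Fstl3* at 0.795 and *Fst* at 0.735 overlapped, and *Inha* at 0.448 and *Inhbb* at 0.165 were again last. The level of *Inhba* thus went from above 28.0% to above 37.3% of the genes, and that of *Fstl3* from above 29.6% to above 13.7%.

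Ratios of the read counts of 2 genes within 1 library do not depend on how the libraries are scaled. These pairs were chosen after their values were seen and were not tested, and the intervals, which are exact 95% binomial intervals, cover counting error only. *Inhba* had 1.70 reads (1.29 to 2.26) for each read of *Fst* in WT replicate 1 and 2.73 (2.09 to 3.59) in WT replicate 2. In CD4/ALK4-KO replicates 1 and 2 this ratio was 6.42 (4.50 to 9.39) and 6.85 (5.01 to 9.55). The mean ratio went from 2.21 in the WT-labelled to 6.63 in the KO-labelled libraries, and the groups did not overlap.

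The ratio of *Inhba* to *Fstl3* was 1.68 and 3.28 in the WT-labelled libraries and 8.56 and 15.8 in the KO-labelled ones. The ratio of *Inhba* to *Fstl1* was 0.0163 and 0.0238 against 0.0438 and 0.0726. Against each of the 3 antagonists *Inhba* had more reads in both KO-labelled libraries than in either WT-labelled one. This is no separate result: *Inhba* was higher, and each antagonist, like *Inhbb*, lower, without overlap of the groups, which fixes this order. Within the subunits, the ratio of *Inhba* to *Inhbb* was 5.88 and 15.0 against 25.7 and 39.4, and the intervals of WT replicate 2 (8.74 to 27.9) and CD4/ALK4-KO replicate 1 (13.3 to 56.8) overlapped. The ratio of *Inhba* to *Tgfb1* was 0.252 and 0.506 against 0.497 and 0.550, and these groups overlapped.

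Ratios among the TGF-β isoforms differed between the groups for *Tgfb3*. *Tgfb3* had 1.00 and 1.12 reads for each read of *Tgfb1* in the WT-labelled libraries and 0.624 and 0.590 in the KO-labelled ones. The mean of this ratio was 1.74-fold higher in the WT-labelled libraries, and no interval of one group reached into the other. The ratio of *Tgfb3* to *Tgfb2* was 7.17 and 3.76 against 1.93 and 3.22, with no overlap of the values. The intervals of WT replicate 2 (3.08 to 4.63) and CD4/ALK4-KO replicate 2 (2.58 to 4.05) did overlap. The ratio of *Tgfb2* to *Tgfb1* was 0.140 and 0.296 against 0.323 and 0.183, so that the groups overlapped.

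**Figure D4:**
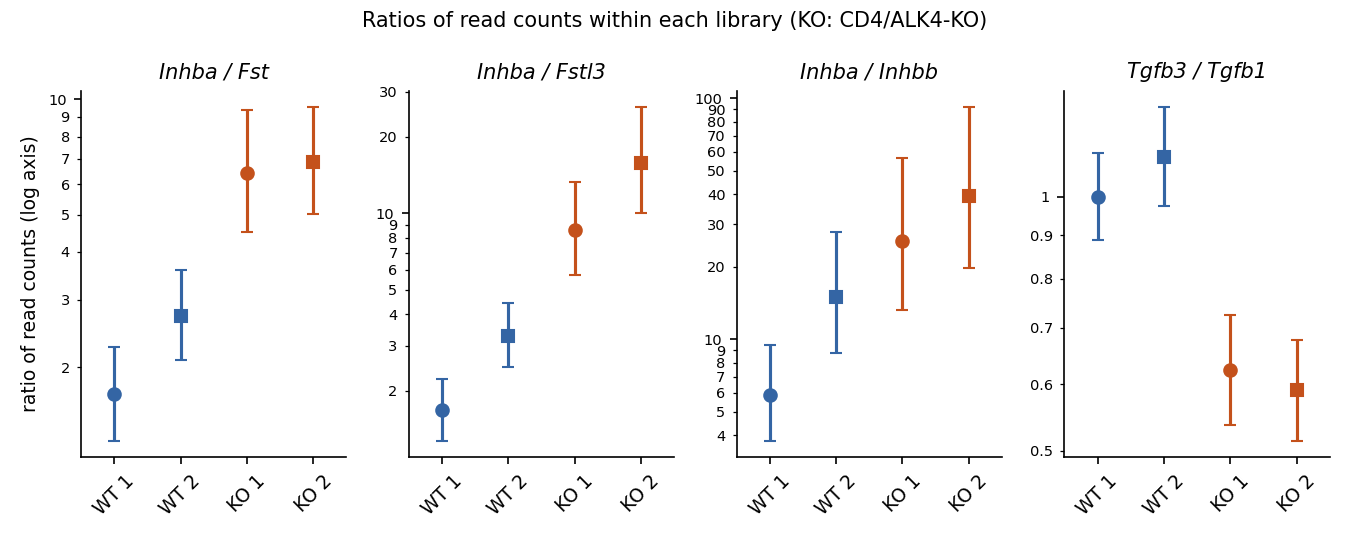
Ratio of the read counts of 2 genes within each library (log axes, each panel with its own range), with exact 95% binomial intervals for counting error. The ratios of *Inhba* to *Fst*, *Fstl3* and *Inhbb* were higher in both KO-labelled libraries, at 6.42 and 6.85 for *Fst*, and the ratio of *Tgfb3* to *Tgfb1* was lower, at 0.624 and 0.590.

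The levels also depended on what the libraries were set against. Scaled to 4 T cell receptor complex genes, *Cd3d*, *Cd3e*, *Cd3g* and *Cd247*, which were all higher in the KO-labelled libraries, the log2 fold changes of all genes shifted by a median of -2.35. On that scale 93.5% of all genes tested were called lower, and so were all 10 genes of the set. *Inhba* was then at -1.56, *Tgfb2* at -1.86 and *Tgfb1* at -2.08, while *Fstl3* was at -3.82. Relative to the shift of all genes, *Inhba* was at 0.79, *Fstl1* at -0.70 and *Fstl3* at -1.47.

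Other genes of the pathway gave 10 higher, 16 lower and 53 not called among 79 tested, of 105 listed, with a median log2 fold change of -0.14. Over all genes tested 17.4% were higher and 15.4% lower, 32.8% in all, so 26 called of 79 is the background share, and the counts for each list below are read against it. Directions here are on the TMM scale: on the T cell receptor scale 73 of these genes were lower and 1, *Sostdc1*, was higher. In none of the 26 called genes did the groups overlap, so their signs were bound to hold as each library was left out. Not all of them stayed called in every such fit. Of 26 other ligands of the superfamily 9 were tested and 0 were called, and *Gdf3*, a ligand of the nodal pathway, had the highest counts of them with 193, 107, 140 and 169 counts. Next were *Gdf6*, with 104, 53, 69 and 64 counts, and *Lefty1*, whose product antagonises nodal, with 53, 73, 32 and 60 counts. That count of 0 is edgeR's. DESeq2 also called 0 of them, and 0 had an unadjusted p under 0.05. Their median was -0.068 on the log2 scale. *Inhba* was thus the ligand gene that was called.

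Of 20 other secreted antagonists 15 were tested, with 1 higher and 3 lower. *Grem1*, which encodes a BMP antagonist, had 350 and 257 counts in the WT-labelled libraries and 67 and 107 in the KO-labelled ones, or -1.64 on the log2 scale (adjusted p = 0.00025, edgeR quasi-likelihood test). *Dcn* and *Vasn*, which encode TGF-β-binding proteins, fell by 0.69 and 1.08 on the log2 scale, and their calls were not kept in every leave-one-out fit. *Sostdc1*, a BMP and Wnt antagonist, went the other way, with 1 and 1 against 36 and 92 counts. A count of 3 lower among 15 is near the 15.4% of all genes tested, so no fall shared with *Fstl1* and *Fstl3* is read from it. The median of the list was -0.16 on the log2 scale, with 9 genes below 0 and 6 above. *Twsg1* (-0.25) and *Bgn* (0.27) did not pass.

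Genes that store or activate latent TGF-β gave 3 higher and 6 lower among 17 tested. *Thbs1*, which encodes thrombospondin 1, an activator of latent TGF-β, rose by a log2 fold change of 1.33, with 10577 and 10358 counts in the WT-labelled libraries and 18434 and 28535 in the KO-labelled ones. *Mmp14*, a membrane metalloproteinase, fell by 1.09 on the log2 scale, and *Fbn1*, a microfibril protein, did not pass at -0.12. Named after their values were seen, *Ltbp1*, *Ltbp2*, *Ltbp3* and *Ltbp4*, whose products are latent TGF-β-binding proteins, fell by 1.35, 1.72, 1.12 and 1.19 on the log2 scale. The calls of *Ltbp2* and *Ltbp3* were not kept in every leave-one-out fit. In the same group and named likewise, *Lrrc32* and *Nrros* rose by 1.85 and 1.07. Their products hold latent TGF-β on regulatory T cells and on myeloid cells. Matrix-bound and cell-bound carriers thus differed in sign on the TMM scale. On that of the T cell receptor genes both kinds were below 0, with *Nrros* at -1.27 and *Lrrc32* at -0.48. *Lrrc32* was not called there (adjusted p = 0.27, edgeR quasi-likelihood test). Relative to the shift of all genes, *Lrrc32* was at 1.87 and *Nrros* at 1.08, and *Ltbp1* to *Ltbp4* were at -1.35, -1.72, -1.11 and -1.19. The sum of the regulatory T cell markers, all 5 of them detected and *Lrrc32* among them, was 100.1 to 110.3 CPM in the WT-labelled libraries and 509 to 516 CPM in the KO-labelled ones. The part of cell composition in these differences was not tested.

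Among 14 receptors and co-receptors tested, 1 was higher and 4 were lower. *Tgfbr2*, the type II TGF-β receptor, rose by a log2 fold change of 1.08, and *Acvr2b*, a type II activin receptor, fell by 1.58 with 78 and 86 against 14 and 35 counts, a call that was lost in 3 of the 4 leave-one-out fits. *Bmpr1a*, *Acvr1* and *Eng* fell by 0.74, 0.85 and 1.05 on the log2 scale, and their calls were also not kept in every leave-one-out fit. *Tgfbr1*, which encodes ALK5, was at 0.27 and not called. Of 7 SMAD genes tested, *Smad7*, the inhibitory SMAD induced by both ligand families, was the 1 called. It had 242 and 210 against 393 and 477 counts, or 1.11 on the log2 scale (adjusted p = 0.0016, edgeR quasi-likelihood test). The call of *Smad7* was likewise not kept in every leave-one-out fit. *Smad5*, *Smad2* and *Smad4* were at -0.44, -0.060 and 0.46 and did not pass.

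Of 17 genes known to be induced by TGF-β or activin, all tested, 4 were higher and 3 lower, with a median log2 fold change of -0.017. *Tgfbi*, which encodes a matrix protein and had the highest counts of them, was at 0.36 and not called, while *Id2* and *Skil*, a transcriptional inhibitor and a SMAD corepressor, rose by 0.71 and 0.84. Named after their values were seen, *Itgae*, the integrin of tissue-resident T cells, rose by 2.03 and *Ldlrad4*, a feedback inhibitor, by 1.05. *Id1* and *Ccn1*, named likewise, fell by 0.81 and 1.25. The calls of *Id2*, *Skil*, *Ldlrad4* and *Id1* were not kept in every leave-one-out fit. The induced genes did not move in 1 direction.

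**Figure D5:**
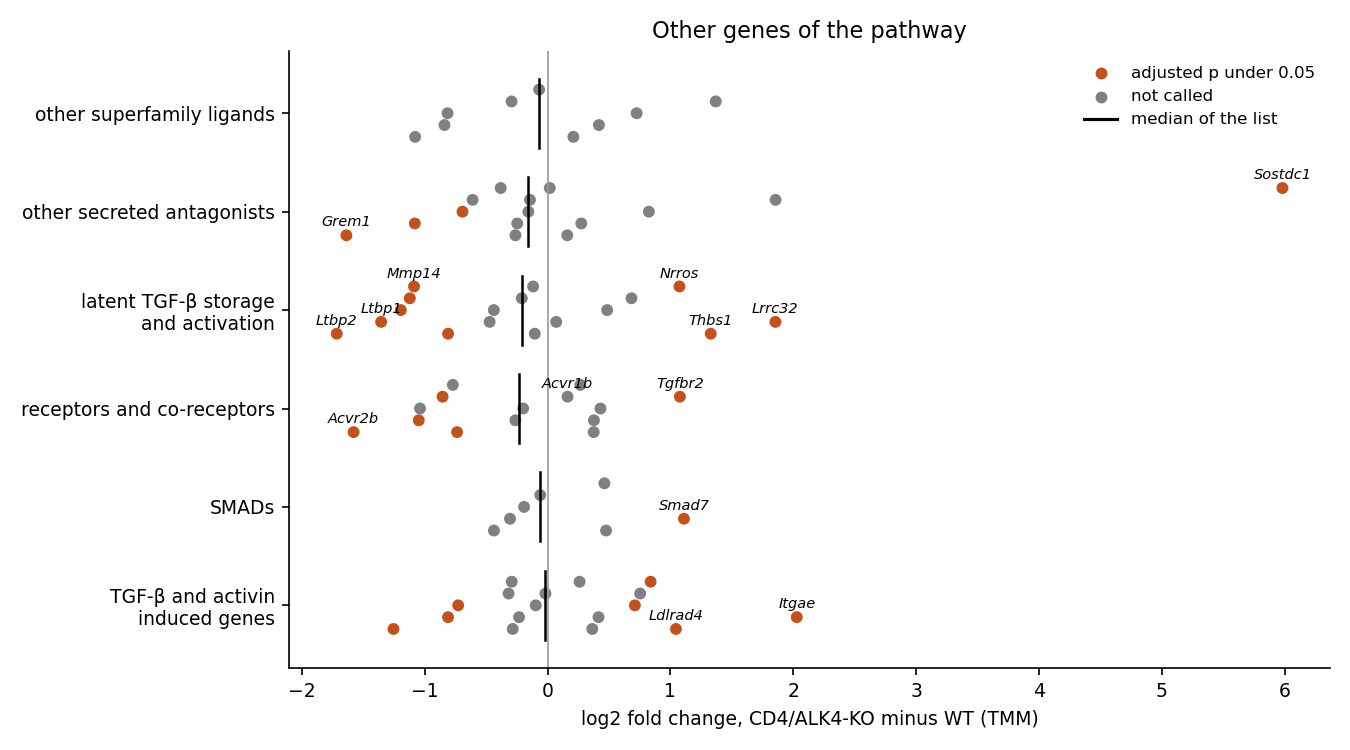
Log2 fold change (TMM scale) of each tested gene in 6 lists of other pathway genes, with orange for an adjusted p under 0.05 and a black line for the median of the list; named points were labelled after their values were seen. The list medians lay between -0.23 and -0.017, and *Sostdc1*, with 1 count in each WT-labelled library, was the point farthest to the right.

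Markers of other cell types also differed, as follows for the lists not yet given. Alongside *Inhba*, the sum of 5 B cell markers was 45.9 to 58.5 CPM in the WT-labelled libraries and 152 to 303 CPM in the KO-labelled ones, and all 5 were called higher. The sum of 5 dendritic cell markers was 67.0 to 71.4 against 76.0 to 110.5 CPM, with *Flt3* and *Cd209a* called higher and *Clec9a* lower. The sum of 6 endothelial markers was 54.6 to 71.2 against 124 to 140 CPM, but *Pecam1*, which leukocytes and platelets also express, carried this. Without it the sums overlapped, at 18.1 and 31.4 CPM in the KO-labelled libraries against 28.5 CPM in the lower WT-labelled one, *Cldn5* was called lower, and the median log2 fold change of the 6 was -0.33. The sum of 8 macrophage markers, from cells that can make activin A, was 1868 to 2860 against 1756 to 2075 CPM and overlapped. Of these *Csf1r* was called higher, at 0.70 on the log2 scale, and 0 were called lower, with a median of -0.44 for the 8. The sum of 6 neutrophil markers also overlapped, at 877 to 1368 against 891 to 1373 CPM. Among them *Csf3r* and *Cxcr2* were called higher, at 1.05 and 0.76 on the log2 scale, and 0 were called lower.

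Alongside *Fstl1* and *Fstl3*, the sum of 4 candidate LLC tumour genes was 659 to 681 CPM in the WT-labelled libraries and 196 to 202 CPM in the KO-labelled ones. All 4 were called lower, in a list that, like the others, was written with earlier results of these data known. The sum of 5 smooth muscle and pericyte markers was 132 to 185 against 56.4 to 57.5 CPM, most of it *Acta2*, the 1 of them called. The sum of 6 platelet and megakaryocyte markers was 294 to 381 against 171 to 175 CPM, with *Pf4* and *Ppbp* called lower. The sum of 8 alveolar macrophage markers was 783 to 928 against 454 to 563 CPM, with 3 called lower and *Siglecf* higher. The sum of 6 lung epithelial markers was 559 to 571 against 284 to 429 CPM, with *Scgb1a1*, *Sftpc* and *Sftpa1* called lower, whereas *Epcam* and *Cdh1*, at 2.31 and 1.77 on the log2 scale, were called higher. The sum of 4 mesothelial markers was 385 to 507 against 340 to 357 CPM, and edgeR called 0 of them, with 1 at an unadjusted p under 0.05 and 0 called by DESeq2. No marker in these lists was at 0 in all 4 libraries, and their part in the differences of *Inhba*, *Fstl1* and *Fstl3* was not tested.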

How the data were processed

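RNA-Seq libraries (illumina TruSeq RNA v2, 75 bp single-end reads) were aligned by the authors to mm10 with HISAT2 and counted with HTSeq, and the deposited values are raw counts per gene symbol, without normalization. Versions, annotation and strand option are not given in the sources used here. Groups and replicates were taken from the sample labels. The 13919 genes kept by filterByExpr were fitted with edgeR 4.0.16 in R 4.3.3 (TMM, robust quasi-likelihood, genotype as the only term), and p-values were adjusted over all of them by Benjamini-Hochberg, with calls at 0.05. Standard errors were taken as |log2 fold change| / √F. Depth was 11823908 to 13943237 counts, which leaves counting error large for *Inha* and *Inhbb*. The common dispersion was 0.0357. Replicates differed beyond sampling noise (chi-square per degree of freedom 13.3 for WT and 24.0 for CD4/ALK4-KO). Exon lengths and positions are those of GENCODE M21, matched by 24321 symbols, and promoter windows were found for 8 of the 10 genes.

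The 10 genes and all lists were chosen with earlier results of these data known. Named are the 10 genes, *Acvr1b*, the 3 genes of highest mean CPM of each pathway or marker list and, in lists with at most 5 called genes, those called, and for each of the 10 the 3 genes nearest in pattern. Further genes, said in the text to be named after their values were seen, stand outside this rule. Of marker lists, mainly sums and called genes are given, and 1 pathway gene is not reported by name. Alternatives were DESeq2 1.42.0 (size factors and Wald test), upper quartile scaling, scaling to T cell receptor complex genes, no filter, a minimum of 10 counts per gene and library, a block for the replicate number, and each library left out.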

Additional observations from a re-analysis of the deposited data

How the results depend on the processing

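On the T cell receptor complex scale *Inhba*, *Tgfb1* and *Tgfb2* changed sign, to -1.56, -2.08 and -1.86, and 10 genes of the set were called lower and 0 higher, 73 other pathway genes lower and 1 higher, and 13013 of all genes lower and 34 higher. The shift of all genes follows from the construction of that scale. With upper quartile scaling 0 genes of the set were called higher, as *Inhba* missed the threshold (adjusted p = 0.059). As each library was left out, the set had 0 to 1 genes called higher and 0 to 3 lower, the other pathway genes 6 to 16 higher and 7 to 20 lower, and all genes 1103 to 2923 higher and 754 to 2618 lower. Without WT replicate 1 or WT replicate 2 the set had 0 calls, the other pathway genes 7 and 10 lower, and all genes 754 and 1047 lower. The lone WT library is then assumed to vary like the others. Without CD4/ALK4-KO replicate 1 the pathway had 16 higher, and without CD4/ALK4-KO replicate 2 the set had 0 higher. *Gdf11* ranged from -0.46 to 0.21. DESeq2 scaling and testing, no filter and the stricter filter kept the counts of the set, 1 higher and 2 lower, although *Inha* and *Inhbb* give no value under the stricter filter and DESeq2 sets the adjusted p of *Inha* to NA.

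The samples share only a replicate number. The correlation of same-numbered deviations was -0.24, and with the number as a block 1 gene of the set was called lower and 0 higher, since *Inhba* (0.81, adjusted p = 0.084) and *Fstl1* (-0.70, adjusted p = 0.088) missed the threshold. A crossed pairing, added after seeing the data, gave 3 genes of the set lower and 1 higher and 18 other pathway genes lower and 17 higher. Depth limits *Inha* and *Inhbb*, at 7 to 24 counts. These adjusted p-values are from edgeR.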

Other observations

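For each of the 10 genes the nearest patterns over the 4 libraries were sought among the tested genes whose mean count reached 100, 10459 or 10460 of them, by the Euclidean distance of log2(CPM + 0.5) centred over the libraries. With 4 points this is a description, and many genes lie close. For *Inhba* the nearest were *Plekhm3*, *Cdk5rap2* and *Tmf1*, at distances of 0.114 to 0.115, and *Plekhm3* had 22.1, 29.6, 38.6 and 51.5 CPM. For *Fstl1* they were *Tacc3*, *Arhgap18* and *Calm2*, at 0.025 to 0.026, and *Calm2* had 647, 653, 442 and 354 CPM, close to *Fstl1* in level as well. For *Fstl3* they were *Cav2*, *Lzts2* and *Cdc45*, of which *Cav2* was nearest at 0.057 with 192, 154, 77.1 and 59.8 CPM.

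For *Tgfb3* the nearest were *Dbndd2*, *Imp3* and *Etfb*, and for *Tgfb1* they were *Lpar2*, *Usp30* and *Dhx37*. *Tgfb2* lay nearest to *Fam49a*, *Cd244a* and *Aox3*, and *Fst* to *Akap1*, *Ifitm3* and *Lamc1*, the last of them a laminin chain gene. *Gdf11* lay nearest to *Mybbp1a*, *Ppp5c* and *Nabp2*. For the scarce *Inha* and *Inhbb* the nearest were *Rer1*, *Crcp* and *Unc50*, and *Gtpbp3*, *Apba3* and *Efemp1*.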
